A study of Mus musculus with 48 samples.

Results

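The cytosolic ribosome carries a large and a small subunit, and each protein of it is encoded by its own gene. The genes described here are the rows of the striatal gene table whose mouse symbol is Rpl or Rps followed by a number, with or without a final a or x, together with Rplp0, Rplp1, Rplp2 and Rpsa. This rule found 76 of the 23420 genes in the table, 46 of the large and 30 of the small subunit. A mean of at least 1 count per 1000000 counts of the table (CPM) over the 16 mice was reached by 73 members, 44 of the large and 29 of the small subunit. Fau, which encodes a ribosomal protein fused to a ubiquitin-like protein, and Rps3a1 have symbols that the rule does not take and are described beside the members.

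RNA was sequenced from the striatum of 16 mice of about 50 days of age, and each mouse's sample joined 3 mm punches of the left and the right striatum. The 8 congenic mice carried a segment of 112 kb on a C57BL/6J background, and the 8 wild-type C57BL/6J mice were their littermates. Each genotype had 4 females and 4 males, and no mouse received a treatment that the labels name. The segment is known to derive from chromosome 11 of DBA/2J and to include Hnrnph1, which encodes a splicing factor. The labels describe the line by its segment alone, so other differences that congenic littermates may share cannot be told apart from it.

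Ribosomal proteins are needed in equal numbers in each subunit, and cells make them together. Their mRNAs are among the most abundant of any cell and usually begin with a cytidine followed by an unbroken run of pyrimidines, the terminal oligopyrimidine or TOP tract, through which the mTOR kinase and the protein LARP1 set how well they are translated and how long they last. In neurons, ribosomal protein mRNAs are also carried into axons and dendrites.

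The start of a TOP mRNA can be read from the genome. RefSeq start sites on GRCm38.p6 were found for 56 of the 76 members, and windows of 30 bases were taken with the start as the first base after 15 upstream bases. A cytidine at the start followed only by C or T, with a run of at least 5 such bases in all on the transcribed strand, was present in 13 of the 56 members (23.2%) and in 813 of 27025 genes with a window (3.01%). A run of at least 5 pyrimidines that included a base within 5 of the start on either side was found in 57.1% of members and 36.7% of all genes. Annotated starts can be off by some bases, and no match says only that these letters were not at the annotated start. The sequences below have the pyrimidine run from the start in capitals. Rps19 and Rps21 were among the members most raised, and Rpl28 and Rplp2 among the least raised, in the mouse that stood apart. A tract at the annotated start was present in Rps21, Rpl28 and Rplp2 and absent in Rps19. Rps10 is shown for its unadjusted p between the genotypes and Rpl15 for the length of its run.

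Rps21: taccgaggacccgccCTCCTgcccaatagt
Rpl28: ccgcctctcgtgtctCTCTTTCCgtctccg
Rplp2: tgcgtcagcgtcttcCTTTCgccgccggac
Rps19: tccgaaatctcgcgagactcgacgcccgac
Rps10: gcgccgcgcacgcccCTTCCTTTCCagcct
Rpl15: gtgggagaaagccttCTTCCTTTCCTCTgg

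The windows lie on GRCm38.p6 at chr2:180257364-180257393 on the plus strand for Rps21, chr7:4792950-4792979 on the plus strand for Rpl28 and chr7:141447636-141447665 on the plus strand for Rplp2. That of Rps19 lies at chr7:24884577-24884606 on the plus strand, that of Rps10 at chr17:27635230-27635259 on the minus strand and that of Rpl15 at chr14:18270972-18271001 on the minus strand. The run of Rpl15, 13 bases, was the longest of any member. Rps19 had no such run at this start.

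The gene table held 73.1 to 82.0 M counts (M, 1000000 counts) per mouse over 3 lanes, and the table of exon bins held 118.5 to 133.2 M. Every mouse was run on each of the 3 lanes, so lane and genotype were crossed. Striatal identity was checked by 15 markers of striatal projection neurons, all of them present in every mouse, among them Ppp1r1b with 1697 to 2264 CPM and Penk with 1344 to 1821 CPM. Xist, high in female tissue, stood at 2.73 CPM in Sample_4806, a wild-type mouse with a female label, and at 958 to 1535 CPM in the remaining females. The summed level of Y-linked genes in Sample_4806 was 0.0917 CPM, as low as in the remaining females (up to 2.74 CPM) and far under the 170 to 214 CPM of the males, so only Xist goes against the female label. The comparison of the sexes is also given without this mouse. Nothing in the labels gives litter, extraction date or preparation batch, and the mice are the replicates throughout.

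Ribosomal protein mRNAs took between 1.38% and 2.14% of all gene counts of a mouse. Wild-type mice ranged from 1.41% to 1.61% with a median of 1.502%, and congenic mice from 1.38% to 2.14% with a median of 1.56%. One congenic male, called Sample_4673 in the labels, accounted for the top of that range, and the other 15 mice lay between 1.38% and 1.67%. The large subunit supplied 0.95 ± 0.10% and the small subunit 0.60 ± 0.07% of counts (SD, n = 16).

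**Figure D1:**
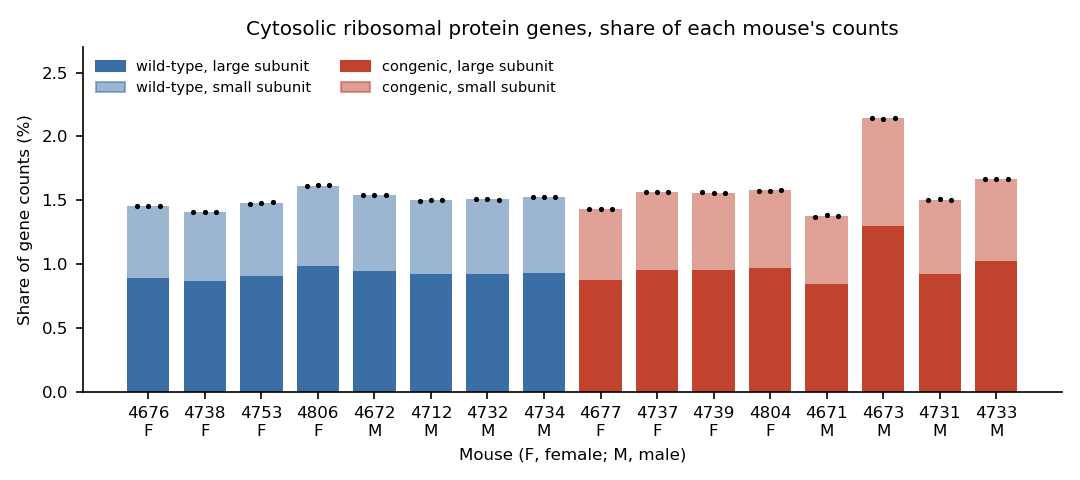
Share of each mouse's gene counts, in percent, taken by the 76 cytosolic ribosomal protein genes, with mice on the horizontal axis in order of genotype and sex. Dark and light parts of a bar are the large and the small subunit, and the 3 dots are the lanes taken alone. Sample_4673 stands at 2.14% and the other mice between 1.38% and 1.67%.

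Of the members, 72 had mean levels from 85.9 CPM (Rpl36) to 620 CPM (Rpl3), a range of 7.22 times, with a median of 204 CPM. Because a longer mRNA gives more counts, levels of different genes were compared per kilobase of covered exon, the summed length of the exon bins of a gene that held counts at no less than 10% of the density of its densest bin. Over the 70 of these members with a usable length, the level per kilobase ran from 150 to 821 CPM with a median of 328 CPM, and 66 lay within 2 times of that median. The narrow range is a description of abundance, since counting of reads shared with pseudogenes and the covered length used can move any single value.

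Among these 70, the highest level per length was that of Rpl31, a protein at the rim of the peptide exit tunnel, with 821 CPM per kb, followed by Rplp1 with 812, Rpl13a with 655, Rps15 with 627, Rps14 with 603, Rpl9 with 494 and Rpsa with 488 CPM per kb. Rpl23a, which binds the signal recognition particle beside the exit tunnel, had a formally higher value of 932 CPM per kb. Its gene count of 233 CPM was 5.67 times its level in the exon table, 41.1 CPM, so this value is not used. At the other end stood Rpl18 with 150, Rplp0 with 158, Rpl10a with 165 and Rps13 with 192 CPM per kb. For Rpl18 and Rplp0 the covered length, 672 and 1358 bases, was above the median length of their annotated transcripts, 540.5 and 1026 bases. This lowers their values per kilobase. By the counts of the exon table Rpl18 had 217 and Rplp0 had 156 CPM per kb, and Rpl29 was lower than both with 147.

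Members with a shared place in the ribosome differed widely in level in the P stalk and less in the other groups. In the P stalk, the flexible arm that recruits elongation factors, Rplp0 is the base and had 158 CPM per kb, while the acidic proteins that it carries had 812 for Rplp1 and 240 for Rplp2. Rpl5 and Rpl11, which join the 5S ribosomal RNA and, when free, bind MDM2, had 296 and 418 CPM per kb. Along the peptide exit tunnel Rpl4 had 321, Rpl17 had 333 and Rpl39 had 234 CPM per kb. At the rim of the tunnel Rpl19 had 372, Rpl35 had 407 and Rpl31 had 821 CPM per kb. On the small subunit, the proteins near the mRNA entry and the decoding site had 455 CPM per kb for Rps2, 399 for Rps3, 405 for Rps23, 420 for Rps27a and 627 for Rps15.

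Rps6, the substrate of S6 kinase, had 478 CPM per kb. Rpsa, also known as the laminin receptor, had 488 CPM per kb. Genes that are mutated in Diamond-Blackfan anaemia, an inherited failure of red cell production, ran from 212 CPM per kb for Rps10 and 226 for Rps26 to 449 for Rps24 and 484 for Rps29, with Rps19 at 319, Rps7 at 428, Rpl35a at 446 and Rpl15 at 267 CPM per kb. The members on the X chromosome, Rps4x, Rpl10, Rpl36a and Rpl39, had 268, 334, 238 and 234 CPM per kb. The members lie on 19 chromosomes, with at most 14 on a single chromosome (chromosome 7), so most are not neighbours in the genome.

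The gene table all but lacked 4 members. Rpl26 had a mean of 0.0025 CPM, Rpl30 0.36 CPM and Rps27 0.96 CPM, which put them just outside the minimum of 1 CPM. Rpl34, with 1.62 CPM, lay just inside it, and the next members inside were Rpl36 with 85.9 and Rpl39 with 87.8 CPM. In the exon-bin table of the same mice the 4 genes were plentiful, with 228 CPM of exon counts for Rpl26, 263 for Rpl30, 187 for Rps27 and 151 for Rpl34. Their gene level was thus at most 0.011 times their exon level, where the other 71 members in both tables ran from 0.50 to 5.67 times with a median of 0.88.

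The sources used here do not give the rule by which either table was counted. Coding sequences of the 4 genes matched the NCBIM37 genome (mm9) along at least 90% of their length at 95% identity or more in 5 to 13 places, whereas the other members ranged from 0 to 55 places with a median of 6, and Rpl21, with 55, kept a gene level of 266 CPM. The part of near-identical copies and of the counting rule in the low gene counts was not tested. Of the 6 rows of the gene table that carry the name of a pseudogene of a member, the highest was Rps15a-ps4 with 2.05 CPM. The values of these 4 genes in the gene table are not read as low expression.

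**Figure D2:**
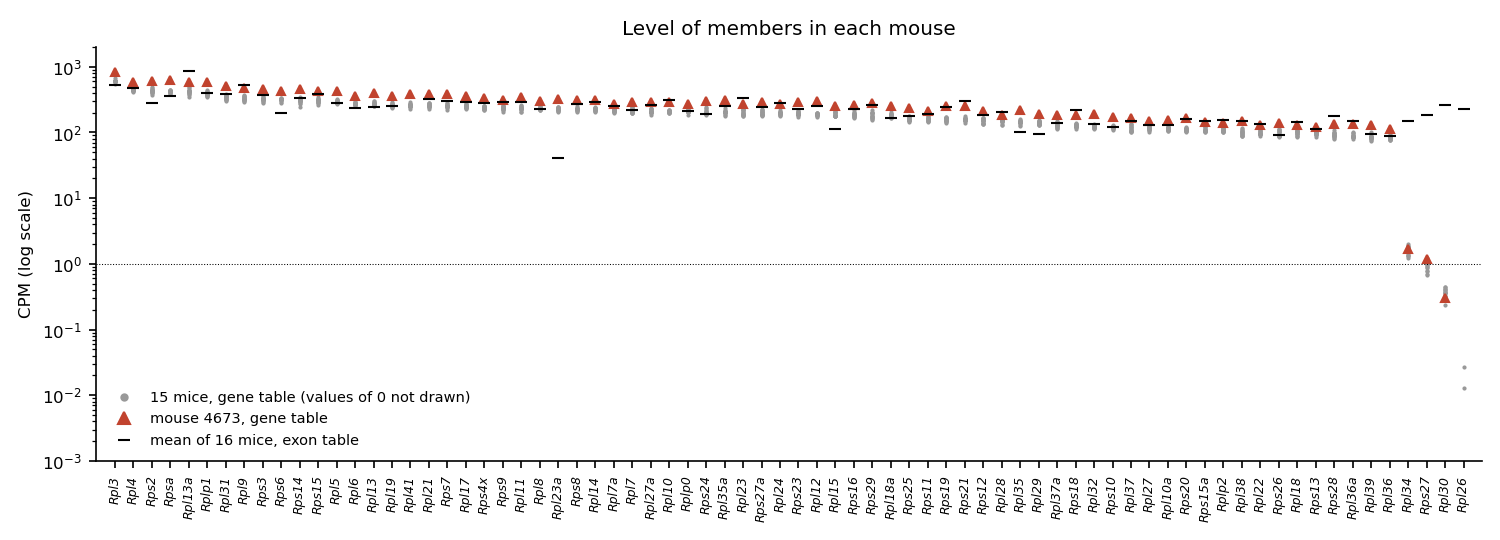
Level of 74 members in CPM on a log scale, in order of the mean. Grey dots are the 15 other mice, red triangles Sample_4673, and black dashes the mean of 16 mice in the exon table. Rpl34, Rps27, Rpl30 and Rpl26 fall to 1.62 CPM or less in the gene table and stand at 151 to 263 CPM in the exon table.

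Levels of the members rose and fell together from mouse to mouse. Over the 16 mice the median correlation of log2 CPM among the 2628 pairs of kept members was 0.90, with a range of 0.20 to 0.99 and no pair below 0. Without Sample_4673 the median was 0.72, with 23 pairs below 0, and the range was -0.28 to 0.97. The median pair among all 14088 genes with a mean of at least 1 CPM had a correlation of 0.03, both with and without that mouse. These points share library, depth and the composition of each library, and are given as a description.

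A single axis, the first principal component, held 85.8% of the variance of the members over 16 mice and 67.5% without Sample_4673. The mean of the small subunit and the mean of the large subunit had a correlation of 0.998 over the 16 mice and 0.996 over the other 15. Spread between mice was small, with a median SD of log2 CPM of 0.09 over 15 mice, where all genes at 1 CPM or more had 0.11. Those genes were not matched to the members in level, so the values do not rank the members against genes of like level. Once the common movement of the members was removed, the SD that remained had a median of 0.05.

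Closest to the other members, by the mean correlation over 16 mice, were members such as Rpl21, Rps18, Rpl19 and Rps23, each at 0.91. The least close were Rpl34 at 0.46, Rpl28 at 0.67, Rpl18 at 0.73, Rps15a at 0.74 and Rpl22 at 0.78. Without Sample_4673 the mean correlation of Rpl28 was 0.39, of Rps15a 0.43, of Rpl18 0.47 and of Rpl22 0.61. Rpl34 went the other way, to 0.68, which is the only kept member for which Sample_4673 was not the highest. In the exon table, where Rpl34 is well covered, it had a correlation of 0.96 with the mean of the other members, and Rpl26, Rpl30 and Rps27 had 0.94, 0.95 and 0.94.

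**Figure D3:**
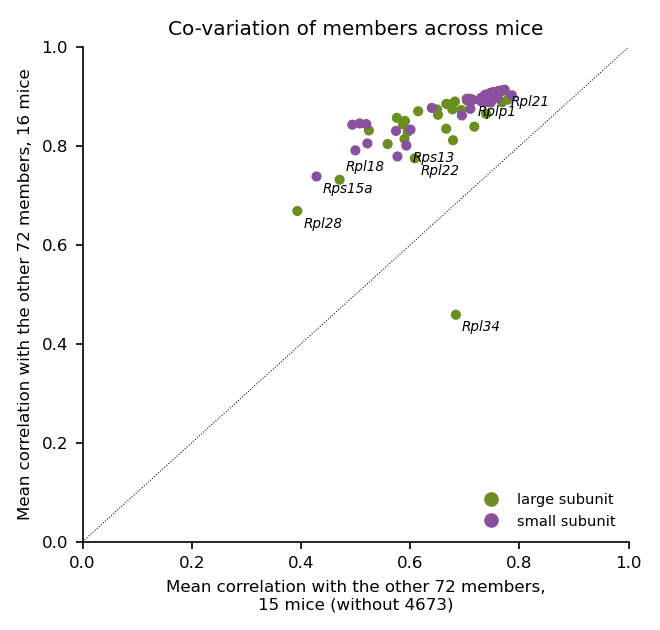
Mean correlation of each kept member with the other 72 members over 16 mice (vertical) against that without Sample_4673 (horizontal), with large subunit members in green and small subunit members in purple. All points but Rpl34 lie above the diagonal, and Rpl28 has the lowest value over 15 mice, 0.39.

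Some genes outside the rule moved closely with the members. Those named here were picked for this correlation, so their closeness follows from the choice. Among genes that are no members, ranked by the correlation with the mean of the kept members over 16 mice, the first 10 were Cox7a2l, Rps3a1, Pfdn5, Atp5h, Guk1, Shfm1, Timm8b, Eef1b2, Atp5j2 and Uqcr10, from 0.97 down to 0.94. Rps3a1 encodes a small subunit protein, Eef1b2 an elongation factor subunit and Pfdn5 a chaperone subunit, and Cox7a2l, Atp5h, Atp5j2 and Uqcr10 belong to the respiratory chain or ATP synthase. Without Sample_4673 the first 10 were Uqcr10, Atp5h, Serf2, Pfdn5, Ndufa13, Fis1, Uqcr11, 2410015M20Rik, Lamtor2 and Mrpl12, from 0.97 to 0.93.

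Sample_4673, a congenic male, had more of nearly every ribosomal protein mRNA than any other mouse. Its median member stood 0.51 above the median of the other 15 mice on the log2 CPM scale, and the other 15 mice lay between -0.12 and 0.15. The level was highest in this mouse for 72 of the 73 kept members, where it was highest for 14.0% of the 16716 genes tested. In the exon table the count was 75 of 75 members against 9.37% of genes with a mean of at least 1 CPM. The 3 lanes taken alone gave 0.51, 0.49 and 0.50 for the median member.

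The excess was similar in size across the members. Apart from Rpl34, the level in Sample_4673 was 1.24 to 1.61 times the median of the other mice, with a median of 1.42 times over the kept members. Rps19 had 252 CPM in Sample_4673 against 140 to 173 CPM in the others, and Rps21 had 251 CPM against 139 to 175 CPM. Rpl12, a protein of the base of the P stalk, had 298 CPM against 174 to 201 CPM, Rplp1 had 592 against 350 to 438 CPM, and Rpl39 had 132 against 74.3 to 101 CPM. None of these ranges reached the value of Sample_4673.

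The least raised were Rpl28 with 187 CPM against 129 to 165 CPM, Rps13 with 123 against 86.0 to 107 CPM, Rpl7a with 273 against 201 to 238 CPM, and Rplp2 with 138 against 100.3 to 123 CPM. Rpl34 had 1.68 CPM in the gene table, inside the 1.24 to 1.99 CPM of the others. In the exon table, though, it had 202 CPM against 134 to 170 CPM. Rpl26, Rpl30 and Rps27 were likewise above all other mice there, at 308 against 196 to 253 CPM, 364 against 220 to 304 CPM and 258 against 161 to 216 CPM.

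Both subunits took part. The median of the large subunit was 0.48 and that of the small subunit 0.52 above the other mice, and the mean of the small over the large subunit was 0.04 in Sample_4673 where the other mice had -0.01 to 0.01. By role, the excess was 0.35 to 0.63 in the P stalk, 0.56 and 0.57 in Rpl5 and Rpl11, 0.41 to 0.63 along the exit tunnel, 0.49 to 0.60 around the decoding site, 0.41 for Rps6, 0.58 for Rpsa, 0.43 to 0.69 for the Diamond-Blackfan genes and 0.47 to 0.63 for the X-linked members. The 12 kept members with the strict pyrimidine start had a median of 0.50, and the 42 with a window but no such start also had 0.50. Among non-members the medians were 0.02 for 352 genes with that start and 0.01 for 11655 without it.

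Lists of other genes show how far the excess reached. Fau stood at 0.50, with 255 CPM against at most 197 CPM. Of all genes tested, 14.0% were highest in Sample_4673. Translation factors and other mRNAs of the TOP class, 19 genes, were at a mean of 0.23 (other mice -0.05 to 0.07), and 13 of them were highest in Sample_4673. Eef1a1, the main elongation factor, had 3231 CPM against 2413 to 2727 CPM, and Tpt1 had 597 against 416 to 544 CPM. The 50 nuclear genes of oxidative phosphorylation were also at 0.23 (other mice -0.09 to 0.13), with 33 highest in this mouse, and 76 mitochondrial ribosomal protein genes were at 0.15 (other mice -0.09 to 0.09), with 43 highest.

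Genes that build or control ribosomes did not share it. The 26 ribosome biogenesis genes, which act in ribosomal RNA synthesis and subunit assembly, had a mean of -0.05 (other mice -0.07 to 0.07), with 3 highest and 6 lowest in Sample_4673. Of all genes tested, 14.0% were highest and 11.8% lowest in this mouse. The 16 regulators of TOP mRNAs, among them mTOR pathway genes and Larp1, had a mean of 0.00. The level of the ribosomal RNA precursor Rn45s was 2537 CPM, inside the 1595 to 4390 CPM of the others. Of the paralogs, Rpl22l1 had 94.7 CPM against at most 63.1 CPM, whereas Rpl7l1 had 48.3 CPM, inside the range of the others, which reached 49.8 CPM. Rpl36al had 89.9 CPM against at most 80.3 CPM, Rps27l 11.8 against at most 12.04 CPM and Rps4y2 11.5 against 9.71 to 13.6 CPM. Rpl3l, a muscle paralog, was lowest in this mouse, at 0.602 against 0.824 to 1.40 CPM, and Rpl39l and Rpl10l had means under 0.1 CPM.

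Cell type markers and library measures of Sample_4673 were set beside this result. The 11 markers of cortical excitatory neurons were all present in every mouse. Their summed level was 186 CPM in Sample_4673 and 199 to 428 CPM in the other mice. Of these 11, 5 were lowest in Sample_4673 (11.8% of all genes tested), among them Slc17a7 with 20.9 against 30.8 to 192 CPM. Others lay inside the range, with Lamp5 at 123 against 108 to 133 CPM, Rorb at 15.5 against 11.9 to 18.3 CPM and Cux2 at 11.6 against 10.1 to 17.1 CPM. The 9 interneuron markers summed to 721 CPM against 761 to 935 CPM, and 3 of them were lowest in Sample_4673. Gad1 alone gave 448 of these 721 CPM and was lowest in this mouse, against 477 to 623 CPM. Inside the range lay Sst at 115 against 103 to 150 CPM and Npy at 38.4 against 31.6 to 45.2 CPM. So did Slc5a7, at 39.1 against 35.2 to 47.4 CPM. The 6 markers of oligodendrocyte precursors had the lowest mean deviation of any mouse, -0.31 against -0.15 to 0.18. Of these 6, 5 were lowest in Sample_4673 (11.8% of all genes tested). Their summed level of 548 CPM lay inside the 486 to 702 CPM of the others. The 10 microglial markers had the highest mean deviation, 0.15 against -0.12 to 0.12, and their summed level of 603 CPM lay inside the 519 to 625.2 CPM of the others. The mean deviations were -1.24 for cortical markers (other mice -1.01 to 0.58) and -0.22 for interneurons (-0.14 to 0.18). None of the genes of these 4 lists was at 0 in any mouse. In bulk tissue, fewer cells of a type and less RNA per cell cannot be told apart.

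The 15 projection neuron markers of Sample_4673 had a mean of -0.06, inside the -0.18 to 0.11 of the others. Its gene total of 73.1 M was the lowest of the 16 by a narrow margin. Sample_4673 stood apart in its exon-bin counts per gene count, 1.68, where the other 15 mice had 1.62 to 1.64. Over the mice, this ratio had a correlation of 0.89 with the mean of the members (n = 16), and of 0.51 without Sample_4673 (n = 15), where both measures come from the same libraries. At the same time, its ratio of counts near the 3′ end to those near the 5′ end of genes, -0.23 on the log2 scale, lay within the -0.32 to -0.12 of the others. Deviations in this mouse moved with transcript length. Split into 4 bins by transcript length, from short to long, the non-member genes had medians of 0.08, 0.01, -0.01 and -0.04. The part of cell makeup, transcript length and the ratio of exon-bin to gene counts in the excess was not tested.

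**Figure D4:**
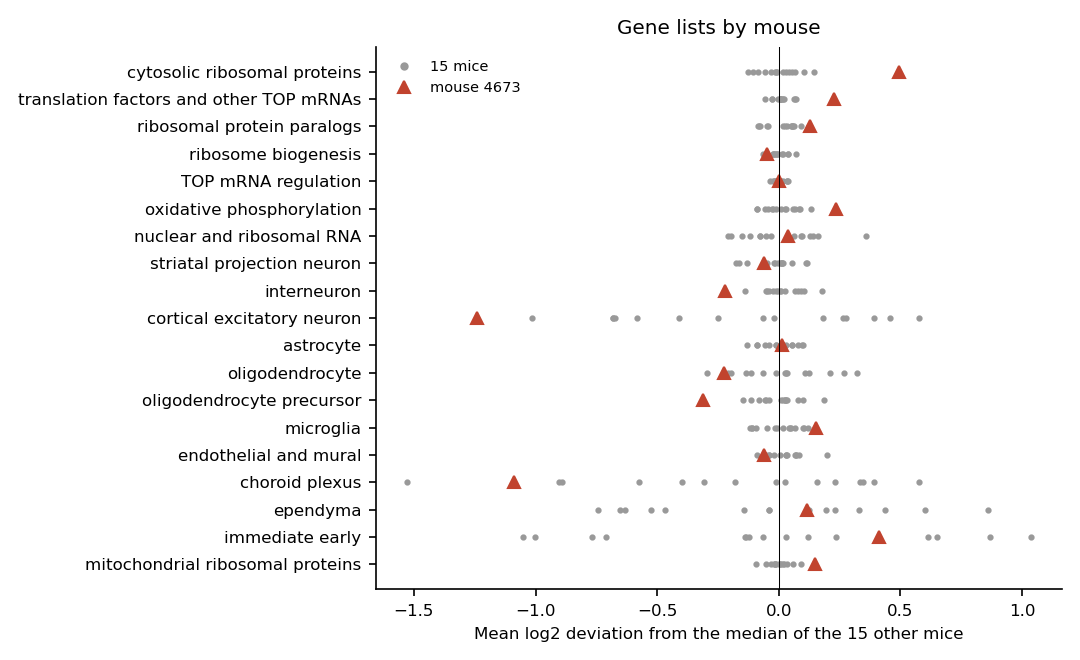
Mean log2 deviation of each gene list from the median of the 15 other mice, with 1 point per mouse and Sample_4673 as a red triangle. Cytosolic ribosomal proteins stand at 0.49 in Sample_4673, apart from all other mice, and translation factors and oxidative phosphorylation at 0.23, while ribosome biogenesis lies at -0.05 within the others.

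Congenic and wild-type mice did not differ in any member by the test. With the edgeR quasi-likelihood test over 16716 genes, with sex in the model, 0 of the 73 kept members had a Benjamini-Hochberg adjusted p under 0.05, against a background of 0% of all genes tested, and the smallest adjusted p was 0.999. At an unadjusted p under 0.05 the members had 2 and all genes 1.53%. DESeq2 called 0 members (0% of all genes), with 4 at an unadjusted p under 0.05 (1.60% of all genes), and limma-voom called 0 (0%), with 1 at that level (1.72%). The ranges of the genotypes lay apart for 0 of the 73 members and for 0% of all genes.

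Every one of the 73 kept members had a log2 fold change above 0, congenic over wild-type, where 51.1% of all genes did. The median was 0.09 and the range 0.04 to 0.17, and the median of all genes was 0.00. Without Sample_4673 the median was 0.03 and the range -0.01 to 0.09, with 69 of 73 above 0 (52.3% of all genes), 0 members at an unadjusted p under 0.05 (1.09% of all genes) and 0 called (0%). Members that vary together give 1 direction with little independent evidence per gene, so these counts describe the mice and are not a test.

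Rps10 and Rps29 had the smallest unadjusted p. Rps10, a small subunit protein of the Diamond-Blackfan group, had 108, 118 and 124 CPM as the lowest, median and highest of the wild-type mice and 117, 124 and 173 CPM in the congenic mice. The groups overlapped, and without Sample_4673 the congenic mean was 123 ± 4.97 CPM (SD, n = 7) against 118 ± 5.28 CPM (SD, n = 8). Its log2 fold change was 0.13 (SE 0.06, edgeR adjusted p = 0.999) and 0.07 (SE 0.03) without Sample_4673.

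Rps29, which lies at chromosome 12, 70258709 to 70260173 on NCBIM37, had 160.1, 177 and 204 CPM in wild-type mice and 157, 196 and 277 CPM in congenic mice as the lowest, median and highest. The congenic group thus held both the lowest and the highest mouse. The log2 fold change was 0.17 (SE 0.08, edgeR adjusted p = 0.999), the highest of the members, and 0.09 (SE 0.06) without Sample_4673.

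Rps21, Rpl38, Rpl41, Rpl23a and Rplp1 were among the next by unadjusted p, with log2 fold changes of 0.15, 0.16, 0.12, 0.12 and 0.14. Without Sample_4673 they were 0.06, 0.08, 0.06, 0.05 and 0.06. Rpl41 encodes the shortest of the ribosomal proteins, and Rps21 and Rpl38 are also small. The 95% intervals of all 73 members lay within 0.5 of 0 on the log2 scale, with 0.35 as the highest upper bound. Only the interval of Rps10 excluded 0. That of Rps29, -0.0045 to 0.35, held 0 although its unadjusted p by edgeR was under 0.05. The intervals and the quasi-likelihood test used different degrees of freedom. Within the congenic group Sample_4671 was the other extreme, with the lowest share of all 16 mice and the lowest level for 44 of the 73 kept members, where it was lowest for 10.8% of all genes. Without Sample_4671 the median was 0.13 and 34 members had an unadjusted p under 0.05, where 3.49% of all genes did, and 0 were called.

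**Figure D5:**
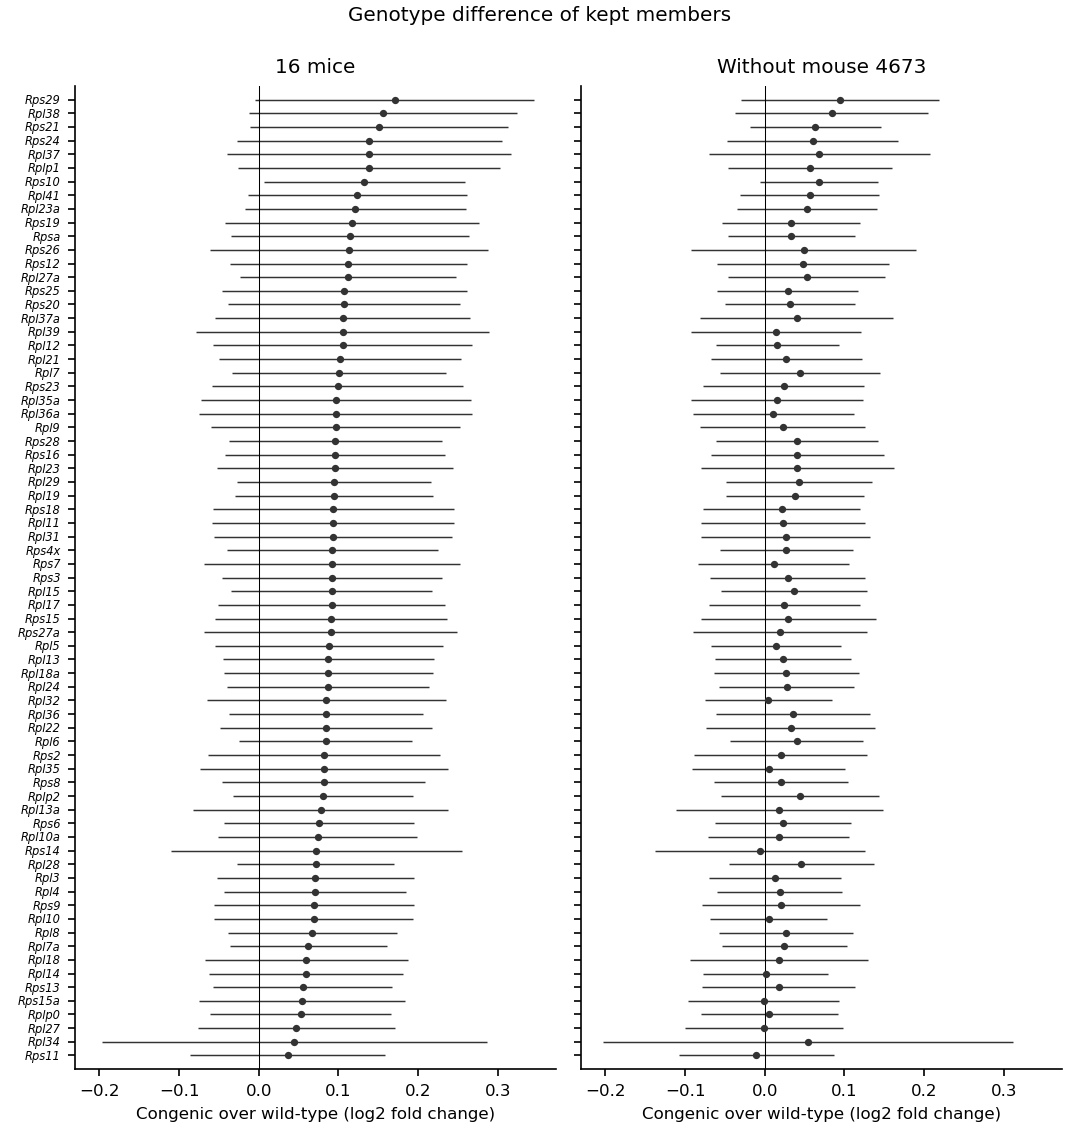
Log2 fold change of 71 kept members, congenic over wild-type, with 95% intervals, over 16 mice on the left and without Sample_4673 on the right. All points lie above 0 on the left, where the median of the 73 kept members is 0.09, and on the right that median is 0.03.

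The share of counts gave the same picture on another scale. The congenic share averaged 1.60 ± 0.24% and the wild-type share 1.504 ± 0.06% (SD, n = 8 in both), a difference of 0.10 percentage points, which is smaller than the SD of the congenic group. Without Sample_4673 the congenic share was 1.53 ± 0.10% (SD, n = 7), a difference of 0.02 percentage points. In the exon table the shares were 1.84 ± 0.25% and 1.73 ± 0.07% (SD, n = 8 each). Fits of the exon table gave Rpl26, Rpl30, Rps27 and Rpl34 log2 fold changes of 0.12, 0.12, 0.09 and 0.09 with SEs of 0.07 to 0.08, and 0.05, 0.04, 0.01 and 0.03 without Sample_4673.

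Related genes were as flat. Among the 19 translation factors and other TOP mRNAs 0 were called, with a median log2 fold change of 0.03, in ribosome biogenesis 0 of 26 with 0.01, in TOP mRNA regulation 0 of 16 with -0.01, and in oxidative phosphorylation 0 of 50 with 0.06. Fau had 0.08 (SE 0.06) and Rps3a1 had 0.08 (SE 0.06). Without Sample_4673 these were 0.02 and 0.01. Summed levels of cortical markers were 186 to 428 CPM in congenic and 219 to 402 CPM in wild-type mice, and of microglial markers 534 to 603 and 519 to 625.2 CPM, so these ranges overlapped between the genotypes.

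Males had slightly higher levels than females for most members, and 0 were called. The median log2 fold change, male over female, was 0.10, with 71 of 73 above 0 against 48.0% of all genes, and 17 had an unadjusted p under 0.05 against 14.7% of all genes. Of all genes 0.138% were called, and 0 of them were members. Without Sample_4673, which is male, the median was 0.04, with 56 of 73 above 0 (46.6% of all genes) and 9 at an unadjusted p under 0.05 (20.1% of all genes), and 0 were called (0.392% of all genes). Without Sample_4806, which has little Xist and female-level Y-linked counts, the median was 0.11, and 0 members were called (0.0893% of all genes).

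Rpl28 and Rps28 had the smallest p for sex. Rpl28, of the large subunit, had 129, 147 and 153 CPM as the lowest, median and highest of the females and 149, 159 and 187 CPM in the males. The groups overlapped only between 149 and 153 CPM. The log2 fold change was 0.19 (SE 0.05, edgeR adjusted p = 0.104), and 0.16 (SE 0.04, edgeR adjusted p = 0.0684) without Sample_4673. DESeq2 called it, with an adjusted p of 0.00944, along with Rps28, with an adjusted p of 0.0290, against 1.55% of all genes. With lane 5 alone edgeR called Rpl28 (0.173% of all genes), and without Sample_4671 it called Rpl18 (0.244%).

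Rps28, of the small subunit, had 80.1, 88.4 and 96.5 CPM in females and 87.9, 97.2 and 133 CPM in males. Its log2 fold change was 0.23 (SE 0.06, edgeR adjusted p = 0.136) and 0.18 (SE 0.05, edgeR adjusted p = 0.0766) without Sample_4673. Rpl18, Rps19 and Rpl36 came next with 0.19, 0.22 and 0.15, and 0.15, 0.13 and 0.10 without Sample_4673. The members on the X chromosome had 0.06 to 0.09 and 0 were called. No gene was called for sex among the 12 immediate early genes, which neuronal activity induces, or the 11 cortical markers. The log2 fold changes of the first were all above 0 with a median of 0.75, and those of 10 cortical markers were below 0, with a median of -0.56 over the list. Their part in the differences of the members was not tested.

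The genotype difference did not depend on sex by the test. The interaction of genotype and sex was called for 0 members and for 0% of all genes tested, with 0 members at an unadjusted p under 0.05 against 4.18% of all genes. Its median over the kept members was 0.07, with 65 of 73 above 0 (49.0% of all genes). Without Sample_4673 it was -0.05 with 2 of 73 above 0 (51.5% of all genes), so the sign of this median changed without that mouse. Males alone gave a genotype median of 0.13 and females alone 0.06.

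Exon use within the members was tested next, since differential splicing is named in the title of the series. Exon bins are pieces of exon cut wherever an annotated transcript starts or stops using the sequence. Each was tested against the remaining bins of its gene with edgeR's diffSpliceDGE. Of 1015 member bins in 75 genes 0 had an adjusted p under 0.05, against 0.000425% of the 235478 bins tested, and 11 had an unadjusted p under 0.05, or 1.08%, against 1.05% of all bins. With a minimum mean of 100 counts per bin, 0 of 645 member bins had an unadjusted p under 0.05, against 0.364% of all such bins, and 0 were called (0%). Of the 75 exon groups, 16 join a member with other genes, mostly small RNAs within its introns, and bins of these are not certain to be of the member.

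The smallest p values came from thinly covered bins. They were bins 9, 10, 11 and 12 of Rpl7a, which lie together at chromosome 2, 26767712 to 26767885, and bin 1 of Rpl14, with means of 14.6 to 69.5 counts per mouse. Bin 10 of Rpl7a held 0.079 ± 0.018% of its group's counts in the congenic and 0.046 ± 0.018% in the wild-type mice (SD, n = 8 each), with an unadjusted p of 0.0008 by diffSpliceDGE and an adjusted p of 1. Bin 1 of Rpl14 took 0.16 ± 0.049% and 0.216 ± 0.031% (SD, n = 8 each). Neighbouring bins share reads, so the 4 bins of Rpl7a count as 1 observation, and the group of Rpl7a also joins SNORD36 small nucleolar RNA genes of its introns, so these bins may not be of Rpl7a itself.

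Rps24 is the member best known for tissue-specific splicing, with short alternative exons near its 3′ end that change the last residues of the protein. Its 11 bins lie on chromosome 14 between 25309903 and 25315368. Bin 4, of 210 bases, held 42.0 ± 0.47% (congenic) and 41.9 ± 0.47% (wild-type) of the gene's bin counts (SD, n = 8 each). Bin 9, an alternative exon of 3 bases at 25314652 to 25314654, held 4.02 ± 0.33% and 4.13 ± 0.35%, and bin 10, of 37 bases at 25314997 to 25315033, held 2.31 ± 0.22% and 2.34 ± 0.17% (SD, n = 8 each). A read that crosses a bin counts in it, so a bin of 3 bases can hold many reads. The differences were all smaller than the spread between mice, and the smallest unadjusted p of any Rps24 bin was 0.1995.

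Sample_4673 lay inside the range of the other mice for bins 9 and 10 of Rps24 and just above it for bin 11. Bin 9 took 4.14% in it against 3.67% to 4.66% in the other mice, and bin 10 took 2.34% against 2.02% to 2.76%. Across members, the bins whose share varied most between mice were bins 19, 20 and 26 of Rpl11, bin 6 of Rpl19 and bin 4 of Rps19, each with a mean share of 1.14% to 1.75%. In all 5 the highest value was that of Sample_4804, a congenic female, with 1.95% to 2.26%. For bin 6 of Rpl19 the share was 1.23 ± 0.34% (congenic) and 1.18 ± 0.22% (wild-type, SD, n = 8 for both), which differ by less than the spread.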

How the data were processed

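Per the labels, RNA of 16 mice was sequenced in 48 runs. The authors deposited raw counts per gene and per exon bin. Tools listed there, per the submitters' processing notes and without roles, are HTSeq 0.6.1p1, limma 3.22.7, FastQC 0.10.1 and edgeR 3.8.6. The labels give both 50 bp single-end and 100 bp paired-end reads, and both mm9 and mm10. The aligner and strand setting are not given in the sources used here. Bins rebuilt from NCBIM37 matched 97.2% of groups with at least 5 bins, so coordinates use that build.

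Runs were summed per mouse. R 4.3.3 with edgeR 4.0.16, limma 3.58.1 and DESeq2 1.42.0 were used, and the scripts were tested on simulated data. Genes passed edgeR's filter (minimum count 10, total 15) and TMM scaling. The main model held genotype and sex, with robust quasi-likelihood tests, all two-sided, and Benjamini-Hochberg adjustment over all genes. Correlations used log2 CPM. Intervals at 95% used the SE and a t distribution with 13 degrees of freedom, 1 fewer without a mouse. Promoter windows were from RefSeq, and copies from BLAST 2.17.0.

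The members, gene lists, rules and alternatives were chosen with earlier results of these data known. Named genes were the highest and lowest per length, the members with a listed role, those of smallest p for genotype and sex, of extreme correlation, of extreme excess in Sample_4673 and those nearest 1 CPM, and up to 4 of each list. The rule also named paralogs of members, the nearest profiles and the exon bins of smallest p or most variable share. Some genes of the rule stay in every fit and count and are not reported here one by one. The mitochondrial ribosomal list was added after the data were seen. Alternatives were other scalings, filters and tools, each mouse or lane left out or alone, and the exon table. Blood markers (Alas2 at 0.21, others -0.78 to 0.49, and the other 4 in the table at 0 in at least 1 mouse, 3 of them globins at 0 in all 16), choroid plexus (-1.09, others -1.53 to 0.58), ependyma (0.12, -0.74 to 0.86), astrocytes (0.01, -0.13 to 0.10), oligodendrocytes (-0.22, -0.29 to 0.32), vascular cells (-0.06, -0.09 to 0.20), immediate early genes (0.41, -1.05 to 1.04) and nuclear RNAs (0.04, -0.21 to 0.36) were also checked in Sample_4673, and mitochondria-encoded genes were not analysed here. The summed level of the 9 astrocyte markers was highest in Sample_4673, 5349 CPM against 4670 to 5284 CPM. Of the 9, 1 was highest (Slc1a2, 3329 against 2710 to 3293 CPM) and 1 was lowest in this mouse.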

Additional observations from a re-analysis of the deposited data

Results flagged for a closer look

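Within each genotype, a mouse was marked when its gap to the nearest other mouse divided by the group's range was above Dixon's 95% critical value, which chance passes in about 1 of 20 groups. Of 104 groups of 8 values tested, 42 had such a mouse. Since the members vary together, these are not 42 separate findings. Sample_4673 was known to stand apart beforehand, and some named members were chosen for their excess in it, so its marks are not a test. The share of all genes marked by this rule is not given here, so no count is read as particular to the members.

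Sample_4673 was marked among the congenic mice for 33 of them: the share of counts, 2.14%, the median log2 deviation, 0.51, the mean of the small over the large subunit, 0.043, and 30 of 49 named members. Of the large subunit its CPM were Rpl23a 328, Rpl31 505, Rplp1 592, Rpl9 477, Rpl10a 156, Rpl5 424, Rpl11 348, Rpl4 589, Rpl17 363, Rpl39 132, Rpl19 359, Rpl35 217, Rpl35a 311, Rpl10 293, Rpl36a 135, Rpl41 381, Rpl21 379 and Rpl12 298. Of the small subunit they were Rpsa 635, Rps3 455, Rps23 289, Rps27a 287, Rps6 425, Rps19 252, Rps24 305, Rps10 173, Rps7 383, Rps4x 332, Rps21 251 and Rps18 186.

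Sample_4806 was marked among the wild-type mice, as the highest, for 9 members. The share of all genes marked in this mouse is not given here. Among the mice of both genotypes, Sample_4806 had the highest level for 10.8% of all genes tested, so its 9 marks are not read as particular to the members. Its CPM were Rpl9 370.4, Rpl5 326, Rpl4 465, Rps24 241, Rps7 284, Rps4x 254, Rpl36a 103, Rpl21 282 and Rpl22 119. This mouse had 2.73 CPM of Xist against its female label, while its Y-linked level of 0.0917 CPM was that of a female, and its share of counts, 1.61%, was the highest of the wild-type mice.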

How the results depend on the processing

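No member was called for genotype or for the interaction, and no member bin for exon use, under any alternative run. Members called for sex numbered 0, but 2 with DESeq2 (Rpl28 and Rps28, of 259 genes called against 23 with edgeR), 1 with lane 5 alone (Rpl28) and 0 to 1 with each mouse left out, the 1 being Rpl18 without Sample_4671. The genotype median of 0.09 ranged from 0.03 without Sample_4673 to 0.13 without Sample_4671, and the difference in share of 0.10 percentage points was 0.02 without Sample_4673. The median correlation of 0.896 was 0.747 by Spearman ranks, 0.699 within wild-type mice and 0.718 to 0.908 with each mouse left out, the lowest being without Sample_4673. The excess of Sample_4673 was 0.45 to 0.51 under the other scalings, single lanes and the exon table, and the causes of these shifts were not tested. Each mouse held at least 73.1 M gene counts (M, 1000000), and what limits the calls was not tested. Exon-table alternatives were added later. No paired analysis was possible because the labels give each mouse its own number.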

Other observations

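Across the 15 mice other than Sample_4673, the mean of the members had a correlation of 0.96 with the mean of the oxidative phosphorylation genes, 0.92 with that of the mitochondrial ribosomal proteins and 0.92 with that of the translation factors, given as descriptions over mice that share library composition. It was 0.15 with ribosome biogenesis and -0.25 with the regulators of TOP mRNAs. For astrocyte markers it was 0.66, for microglial markers 0.59 and for striatal projection neuron markers -0.46.

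The level of Rn45s had a correlation of 0.59 with the members over these 15 mice, and the ratio of counts near the 3′ end to those near the 5′ end 0.38. Sample_4804 had the highest share in the ranked exon bins of Rpl11, Rpl19 and Rps19 named above. The same held for bin 2 of Rps24 (7.41% against a median of 5.52%). This mouse also had the highest 3′ to 5′ ratio of the 16 mice, -0.12.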
